A study of Mus musculus with 10 samples.

Results

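The genes described are 10 members of the JAK, STAT and SOCS signalling families, taken by symbol from the table of gene counts of sorted fetal liver stem cells. They are the kinases Jak1 and Jak2, the transcription factors Stat3, Stat5a, Stat5b and Stat6, and the inhibitors Socs1, Socs2, Socs3 and Cish. All 10 of 10 were present among the 17404 genes of the table and were among the 16725 genes with enough counts to be tested. Stat3 and Socs3 were higher in the libraries of the knockout embryos, and the levels of the other 8 members overlapped between the genotypes. Both calls lay close to the threshold of an adjusted p of 0.1. Both were lost with Xist as a covariate (adjusted p = 0.251 for Stat3 and 0.255 for Socs3 by edgeR) and with an offset for transcript length (0.146 and 0.115). In these 2 settings 0 genes of the whole table passed. Both were also lost in most fits that leave out 1 library, Stat3 passing in 2 of 10 of these and Socs3 in 1 of 10.

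The samples are bulk RNA-seq libraries of long-term hematopoietic stem cells (LT-HSCs), sorted as CD150+ cells from fetal livers of C57BL/6 mouse embryos at E14.5. The 6 KO libraries carry the genotype Tnfrsf11aCre; Spi1f/f and the 4 WT libraries the genotype Tnfrsf11a+/+; Spi1f/f, so that floxed Spi1 alleles are shared by all embryos and Cre separates the groups. Spi1 encodes PU.1, which macrophages need to form, and Cre is expressed from Tnfrsf11a, a gene active in macrophage precursors, so the model is aimed at the macrophages around the LT-HSCs rather than at the LT-HSCs themselves. The comparison asks which stem cell genes differ in a liver whose macrophages were targeted.

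Cytokine receptors such as those for erythropoietin and interleukins have no enzyme activity of their own and carry Janus kinases (JAKs) on their inner face. A bound receptor activates its JAKs, which phosphorylate STAT proteins, and paired STATs move to the nucleus and switch on target genes. Among those targets are the SOCS genes and Cish. Their products inhibit the JAKs or occupy the receptor, and their RNA is known to rise on cytokine stimulation. The erythropoietin receptor signals through Jak2 and Stat5, while the interleukin-6 family signals through Jak1 and Stat3.

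Since SOCS genes are themselves targets, the starts of the members were read for the core sequence that STAT dimers bind, TTCNNNGAA, in which N is any base, and for TTCNNNNGAA, the longer spacing preferred by Stat6. Each pattern is its own reverse complement, so 1 search covers both strands, and matches to the 2 patterns cannot start at the same base. The windows, from RefSeq on GRCm38.p6, run from 250 bases before to 50 after a start site, and 9 of the 10 members had 1 or more, 11 windows in all. Cish had 2 matches to TTCNNNGAA and Socs3 had 1, and no window of the members held TTCNNNNGAA. Among all 32851 windows of this length, 8.30% held TTCNNNGAA, 0.457% held 2 or more and 6.95% held TTCNNNNGAA. The 2 stretches that hold the matches are shown because they belong to the feedback genes whose RNA is compared below, with the matching bases in capitals and written 5′ to 3′ on the strand of the gene.
Cish, chr9:107296654-107296683, plus strand, base -5 to 25 of the start site: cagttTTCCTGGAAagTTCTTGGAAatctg
Socs3, chr11:117969452-117969616, minus strand, base -250 to -86 of the start site: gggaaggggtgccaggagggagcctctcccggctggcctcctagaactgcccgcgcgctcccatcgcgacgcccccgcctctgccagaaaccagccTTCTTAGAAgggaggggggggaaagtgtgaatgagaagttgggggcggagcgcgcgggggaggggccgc
The Cish matches TTCCTGGAA and TTCTTGGAA begin at bases 1 and 12 of the RefSeq transcript, inside the first exon of the Gencode vM21 transcript Cish-201 and 51 and 40 bases before the first base of Cish-204. The Socs3 match TTCTTAGAA begins 154 bases before the RefSeq start site and 334 bases before the first base of the Gencode transcript Socs3-201, and it lies in an intron of Socs3-202. A match is a run of letters, and binding of a STAT protein was not measured here.

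Depth differed between libraries, from 5315435 to 30941726 counts on genes in KO and from 7633446 to 18256010 in WT, and levels are given below as CPM, counts scaled to a common library size after TMM normalisation. Spi1 did not mark the genotype in these cells, with 9.10 to 101 CPM in KO and 6.22 to 50.1 CPM in WT libraries (Benjamini-Hochberg adjusted p = 0.337 over all genes, from the quasi-likelihood test of edgeR). Xist RNA, as CPM of the transcript estimates, was present in 2 of 6 KO libraries, at 332 and 381 CPM. It was present in 4 of 4 WT libraries at lower levels, 73.5 to 129 CPM. The remaining KO libraries were at 1.26 to 2.40 CPM. Read as a mark of sex, Xist was not balanced between the groups, and no other mark of sex was read. For the stem cell label, 10 genes of the sort and of stem cells were read, Kit and Cd34 among them. Their summed level was 694 to 1650 CPM in KO and 500 to 730 CPM in WT. All of them were detected, but detection in bulk RNA does not identify the cells. Cd48, which is in this list, is not a mark of LT-HSCs, so its RNA does not speak for the label. Genes of other cells were detected as well, and 12 endothelial genes, led by Stab2 and Lyve1, summed to 2232 to 9530 CPM in KO and 920 to 6266 CPM in WT. Of the 13 macrophage genes tested, Mrc1 and Vcam1 had the highest levels, and Marco was at 0 counts in all 6 KO libraries and at 3.41 to 14.3 CPM in WT. Mrc1 was highest in KO library 3 (714 CPM) and lowest in WT library 1 (3.11 CPM). The endothelial gene Stab2 was also highest and lowest in these libraries, at 2118 and 6.07 CPM. Whether the Mrc1 RNA came from macrophages was not tested. In bulk RNA, fewer cells of a type and less RNA per cell cannot be told apart. The WT embryos were littermates of KO embryos according to the study, but the labels tie no library to a litter, so litter could not be a term in the fit and p-values measure the spread between these samples.

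Across all 16725 genes, 221 (1.32%) were higher and 446 (2.67%) lower in KO at an adjusted p below 0.1 from edgeR with Benjamini-Hochberg adjustment (251 and 852 with an offset for GC content). Of the members, 2 of 10 were higher, Stat3 and Socs3, and 0 were lower. At an unadjusted p below 0.05, which 8.6% of all genes passed in the higher and 10.2% in the lower direction, the members called were the same 2, and DESeq2, testing against a log2 change of 0.1 as the study did, which called 585 genes (4.1%) higher, also called these 2. The KO and WT libraries did not overlap for 1064 genes (6.36%) of the table and for 2 of the members, again Stat3 and Socs3. The median log2 fold change was 0.23 over the members and 0.06 over all genes tested.

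**Figure D1:**
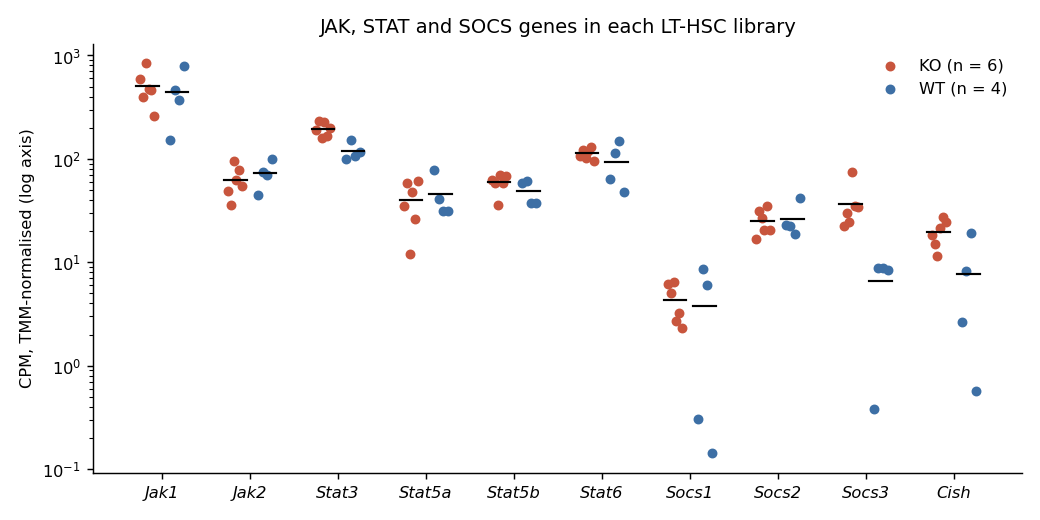
Level of each member in each library, as CPM on a log axis, with KO libraries (n = 6) in red and WT libraries (n = 4) in blue, and black bars for the group means. The groups are apart for Stat3, with KO above 159 and WT at or below 151 CPM, and for Socs3, with KO above 22.5 and WT at or below 8.87 CPM, and they overlap for the other 8 members.

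Jak1 and Jak2 are the kinases of the set, Jak1 serving the interleukin-6 and common gamma chain receptors and Jak2 the receptors for erythropoietin and interleukin-3. Jak1 (chr4:101152367-101265282, minus strand, in Gencode vM21 on GRCm38, as for all gene positions below) ranged in KO from 260 to 837 CPM with a median of 469 CPM. In WT libraries 1 to 4 it was at 152, 465, 374 and 795 CPM. The WT libraries alone spanned nearly the whole range of the gene, and the groups overlapped. Its log2 fold change, KO over WT, was 0.18 (standard error, SE, 0.40, 95% interval -0.69 to 1.05, adjusted p = 0.854 by edgeR with Benjamini-Hochberg adjustment).

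Jak2 (chr19:29251828-29313080, plus strand) ranged in KO from 36.0 to 95.7 CPM with a median of 58.5 CPM. In the WT libraries it was at 44.7, 75.0, 69.7 and 101 CPM. The highest value was in WT library 4 and the lowest in KO library 2, with the rest intermixed. The log2 fold change was -0.21 (SE 0.29, 95% interval -0.84 to 0.42, adjusted p = 0.754 by edgeR with Benjamini-Hochberg adjustment), an interval that includes both a decrease and an increase of moderate size. The ratio of Jak2 to Jak1 within a library, which does not depend on how libraries are scaled, was -2.99 ± 0.53 in KO (SD, n = 6) and -2.45 ± 0.51 in WT (SD, n = 4) on the log2 scale of CPM. The difference of -0.54 was not significant (two-sided exact permutation test, p = 0.162, and 0.190 after Benjamini-Hochberg adjustment over 3 ratios).

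Stat3, which carries signals of the interleukin-6 family and of Csf3, was the member with the clearest separation among the STAT genes. In KO libraries 1 to 6 it was at 190, 230, 159, 229, 168 and 198 CPM, with a lowest value of 159, a median of 194 and a highest of 230 CPM. In WT libraries 1 to 4 it was at 99.0, 151, 107 and 118 CPM. Every KO library lay above the highest WT library, WT library 2, though KO library 3 did so by little. The means were 196 ± 29.9 CPM in KO (SD, n = 6) and 119 ± 22.8 CPM in WT (SD, n = 4), a log2 fold change of 0.72 (SE 0.19, 95% interval 0.32 to 1.13, adjusted p = 0.0836 by edgeR with Benjamini-Hochberg adjustment), or 1.65-fold. By DESeq2 with the fold change threshold the adjusted p was 0.0327, and by edgeR without KO library 4 it was 0.206.

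Stat3 lies at chr11:100885098-100939540 on the minus strand and shares its last 72 exonic bases with Stat5a on the plus strand, which is 0.756% of its exonic bases. SmartSeq2 libraries do not keep the strand, so reads from these 72 bases cannot be told apart. Of the words of 31 bases in the Stat3 transcripts, 2.35% also occur in another gene. Most estimated Stat3 reads, 74.8% to 96.5% per library, were on the transcript Stat3-203.

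Stat5a and Stat5b are near-identical neighbours that carry erythropoietin and interleukin-3 signals, and Stat5b (chr11:100780731-100850724, minus strand) ends 8626 bases before Stat5a (chr11:100859351-100885169, plus strand). Stat5a ranged in KO from 12.0 to 61.3 CPM with a median of 41.7 CPM. In the WT libraries it was at 78.9, 40.6, 31.5 and 31.3 CPM. Its highest value was in WT library 1 and its lowest in KO library 3, and the groups overlapped (log2 fold change -0.18, SE 0.42, 95% interval -1.10 to 0.73, adjusted p = 0.857 by edgeR with Benjamini-Hochberg adjustment).

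Stat5b ranged in KO from 36.1 to 70.5 CPM with a median of 60.7 CPM. In the WT libraries it was at 58.9, 60.7, 37.7 and 37.8 CPM. It was above all WT libraries in 3 of 6 KO libraries, and the log2 fold change was 0.28 (SE 0.24, 95% interval -0.24 to 0.79, adjusted p = 0.577 by edgeR with Benjamini-Hochberg adjustment). Words of 31 bases shared with another gene made up 12.3% of Stat5a and 15.3% of Stat5b, and 836 of them were shared between the pair, so the division of reads between them is uncertain. The log2 ratio of Stat5b to Stat5a was 0.71 ± 0.61 in KO (SD, n = 6) and 0.17 ± 0.42 in WT (SD, n = 4), a difference of 0.54 that was not significant (two-sided exact permutation test, p = 0.190, adjusted p = 0.190 over 3 ratios).

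Set against the sum of Stat5a and Stat5b, which removes that uncertainty, Stat3 was at a log2 ratio of 0.62 to 1.73 in KO, with 4 of the 6 libraries between 0.95 and 0.98. In WT libraries 1 to 4 the ratio was -0.48, 0.57, 0.63 and 0.77. The ratio was above all WT libraries in 5 of 6 KO libraries, the exception being KO library 6. The means of 1.04 ± 0.37 (SD, n = 6) and 0.37 ± 0.57 (SD, n = 4) differed by 0.66 (two-sided exact permutation test, p = 0.0286), which was 0.0857 after Benjamini-Hochberg adjustment over 3 ratios. Without WT library 1 the difference was 0.38 (exact permutation p = 0.0714).

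Stat6 (chr10:127642986-127660957, plus strand) carries interleukin-4 and interleukin-13 signals. It had the smallest spread relative to its mean in KO, from 94.5 to 132 CPM with a median of 114 CPM. In the WT libraries it was at 64.5, 114, 149 and 48.0 CPM. The WT values lay on both sides of the KO range, and the log2 fold change was 0.26 (SE 0.28, 95% interval -0.35 to 0.87, adjusted p = 0.663 by edgeR with Benjamini-Hochberg adjustment). Single WT libraries moved its size, with a log2 fold change of 0.62 without WT library 3 (adjusted p = 0.240) and 0.048 without WT library 4 (adjusted p = 0.942, edgeR).

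Socs3, the inhibitor that binds the shared receptor chain of the interleukin-6 family and blocks its JAKs, had the largest fold change of the members. In KO libraries 1 to 6 it was at 22.5, 29.9, 24.7, 74.8, 34.7 and 34.2 CPM, with a lowest value of 22.5, a median of 32.0 and a highest of 74.8 CPM. In WT libraries 1 to 4 it was at 0.379, 8.78, 8.87 and 8.49 CPM. Every KO library lay above every WT library, with KO library 4 far above the others and WT library 1 far below them, where Socs3 rested on 5 counts. The means were 36.8 ± 19.2 CPM in KO (SD, n = 6) and 6.63 ± 4.17 CPM in WT (SD, n = 4), a log2 fold change of 2.48 (SE 0.66, 95% interval 1.04 to 3.92, adjusted p = 0.0906 by edgeR with Benjamini-Hochberg adjustment), or 5.57-fold. By DESeq2 with the fold change threshold the adjusted p was 0.00984, and by edgeR without KO library 4 it was 0.210. Socs3 lies at chr11:117966079-117970047 on the minus strand, shares no word of 31 bases with another gene, and was assigned to the transcript Socs3-201 for at least 99.9% of its estimated reads.

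Cish, the first described member of the inhibitor family and a target of Stat5, also had its higher levels mainly in KO. In KO libraries 1 to 6 it was at 18.4, 15.2, 11.4, 21.6, 27.1 and 24.3 CPM. In WT libraries 1 to 4 it was at 2.65, 8.16, 19.1 and 0.566 CPM. Of the KO libraries, 3 of 6 lay above all WT libraries, and WT library 3 lay within the KO range, so that the groups overlapped. The log2 fold change of 1.36 (SE 0.68, 95% interval -0.12 to 2.83) did not pass the threshold (adjusted p = 0.306 by edgeR with Benjamini-Hochberg adjustment). It was 2.38 without WT library 3 (adjusted p = 0.107) and 0.98 without WT library 4 (adjusted p = 0.336, edgeR). Cish lies at chr9:107296026-107302784 on the plus strand and shares 479 exonic bases with the antisense gene Gm17041 and 261 with the pseudogene Gm17040, both on the other strand. The libraries do not keep the strand, so reads of these stretches cannot be told apart by strand. Neither gene is in the gene table. The transcript estimates gave Gm17040 78.0 counts in KO and 2 in WT, and Gm17041 30.6 and 8.24. Of the words of 31 bases in the Cish transcripts, 10.4% also occur in another gene.

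Socs2, which dampens growth hormone receptor signals, did not separate the groups. It ranged in KO from 16.6 to 34.9 CPM with a median of 23.5 CPM. In the WT libraries it was at 22.8, 22.6, 18.9 and 41.6 CPM. Its log2 fold change of -0.08 (SE 0.30, 95% interval -0.73 to 0.57, adjusted p = 0.919 by edgeR with Benjamini-Hochberg adjustment) was the smallest in size among the members. Socs2 lies at chr10:95385362-95417180 on the minus strand.

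Socs1, a direct inhibitor of JAK activity best known from interferon signalling, was the lowest member in CPM. It ranged in KO from 2.30 to 6.44 CPM with a median of 4.14 CPM. In the WT libraries it was at 0.303, 8.52, 6.06 and 0.142 CPM, the lowest of these resting on 4 counts in WT library 1 and 1 count in WT library 4. WT library 2 lay above and WT libraries 1 and 4 below all KO libraries, and the log2 fold change of 0.19 had the widest interval of the members (SE 0.89, 95% interval -1.75 to 2.13, adjusted p = 0.934 by edgeR with Benjamini-Hochberg adjustment). Socs1 lies at chr16:10782240-10785536 on the minus strand.

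**Figure D2:**
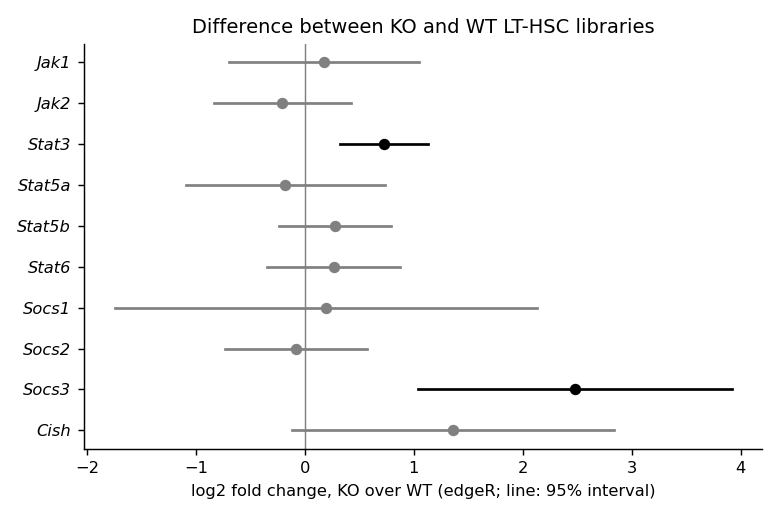
Log2 fold change of each member, KO (n = 6) over WT (n = 4), from edgeR, with points for the estimate and lines for its 95% interval, black where the adjusted p is below 0.1 and grey otherwise. Stat3 (0.72) and Socs3 (2.48) are the members in black, and the lines of the other 8 cross 0.

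Levels of different genes were compared within a library as TPM, the deposited values that are divided by transcript length and scaled to the same total in each library. Jak1 was first among the members in all 10 libraries, at 54.0 to 215 TPM in KO and 31.9 to 133 TPM in WT. Stat3 was the second in every KO library, at 38.2 to 84.9 TPM, and ranked between 2 and 3 in WT, at 18.0 to 38.6 TPM. Unlike its CPM, the TPM of Stat3 overlapped between the groups, with KO library 5 (38.2 TPM) just below WT library 2 (38.6 TPM). The share of Stat3 in the summed TPM of Stat3, Stat5a, Stat5b and Stat6 overlapped as well. WT library 4 had a share of 50.7%, above KO libraries 3, 5 and 6 at 50.3%, 42.7% and 50.4%. Stat6 was the third in every KO library, at 24.3 to 45.4 TPM, and ranked between 2 and 5 in WT. These 3 genes stood above the remaining members in KO, while Jak2, Stat5a, Stat5b, Socs2 and Socs3 held ranks between 4 and 10 with ranges that overlapped. Jak2 took 6.97% to 15.1% of the summed TPM of both kinases in KO and 11.1% to 19.2% in WT. The mean TPM was higher in KO for all 10 members, including Jak2, Stat5a and Socs2, whose CPM after TMM normalisation had a negative log2 fold change. TPM was therefore not tested between the groups, and the ranks and shares within a library are set side by side as a description.

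The order among the inhibitors differed between libraries. Socs3 ranked between 4 and 8 of the 10 members in KO and between 8 and 10 in WT, while Socs2 ranked between 4 and 8 in KO and between 3 and 5 in WT. As a share of the summed TPM of Socs1, Socs2, Socs3 and Cish, Socs3 made up 28.9%, 25.5%, 29.3%, 57.3%, 29.4% and 38.1% in KO libraries 1 to 6. In WT libraries 1 to 4 its share was 0.982%, 13.2%, 14.0% and 12.8%. The shares of Socs3 did not overlap between the groups, as its CPM did not. Socs2 had the largest share in all 4 WT libraries, at 38.2% to 91.1%, and 23.5% to 53.8% in KO. Cish took 11.4% to 23.1% in KO and 0.508% to 27.0% in WT, a wider spread in the smaller group. These shares are a description of the same reads as the levels above.

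**Figure D3:**
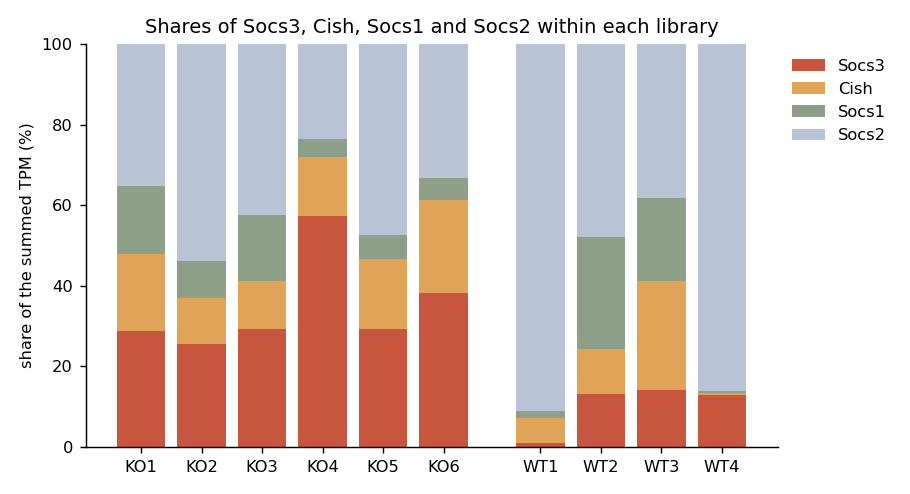
Share of each inhibitor gene in the summed TPM of Socs3, Cish, Socs1 and Socs2, as stacked bars in percent for each KO library (1 to 6) and each WT library (1 to 4). The red part, Socs3, covers at least 25.5% of each KO bar and at most 14.0% of each WT bar.

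Estimates of single transcripts from short single-end reads are uncertain and were not tested, but Stat5a had a pattern of its own. Its protein-coding transcript Stat5a-203 held 14.6% to 63.5% of the Stat5a reads in the 6 KO libraries, with a median of 19.7%, and between 0 and 2.97% in the 4 WT libraries. Most of the remaining reads were on Stat5a-202, from 36.0% to 84.7% in KO and from 91.5% to 100% in WT. The KO library with the largest share of Stat5a-203, library 3, was also the one with the lowest Stat5a level. For Jak1 and Stat6 a single transcript held at least 95.8% of the reads in every library, while the division of Stat5b and Cish reads among transcripts varied widely. Stat5b-201 held 0 to 100% of the Stat5b reads in WT and 24.6% to 100% in KO, and Cish-201 held 0 to 78.4% of the Cish reads in WT and 34.0% to 95.4% in KO. The share of 0 for Cish-201 was that of WT library 4, where Cish had only 4 counts.

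The call of Stat3 and of Socs3 lay close to the threshold, since the smallest adjusted p of any gene in the table was 0.0743. With each library left out in turn, Stat3 passed the threshold in 2 of 10 fits, with an adjusted p of 0.0640 to 0.206, and Socs3 in 1 of 10, with 0.0791 to 0.210 (edgeR, Benjamini-Hochberg). Both kept their direction and size in these fits, with log2 fold changes of 0.65 to 0.86 for Stat3 and 2.08 to 2.70 for Socs3. Without KO library 1, 2, 4, 5 or 6 or WT library 1, 3 or 4, neither passed. Of all genes, 0 passed without KO library 1, 2, 5 or 6 or WT library 1, and 1 passed without KO library 4. Without WT library 3, 209 genes passed as higher and 401 as lower, and without WT library 4, 225 and 451. The largest unadjusted p with a library left out was 0.00557 for Stat3 and 0.00786 for Socs3 (edgeR). With Xist as a covariate the log2 fold change was 0.74 for Stat3 (adjusted p = 0.251) and 2.22 for Socs3 (adjusted p = 0.255), and in the 2 KO and 4 WT libraries with Xist RNA, a comparison chosen after seeing the data, it was 0.70 and 2.01 (adjusted p = 0.837 for both, edgeR with Benjamini-Hochberg adjustment). With an offset for transcript length it was 0.62 (adjusted p = 0.146) and 2.54 (adjusted p = 0.115).

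**Figure D4:**
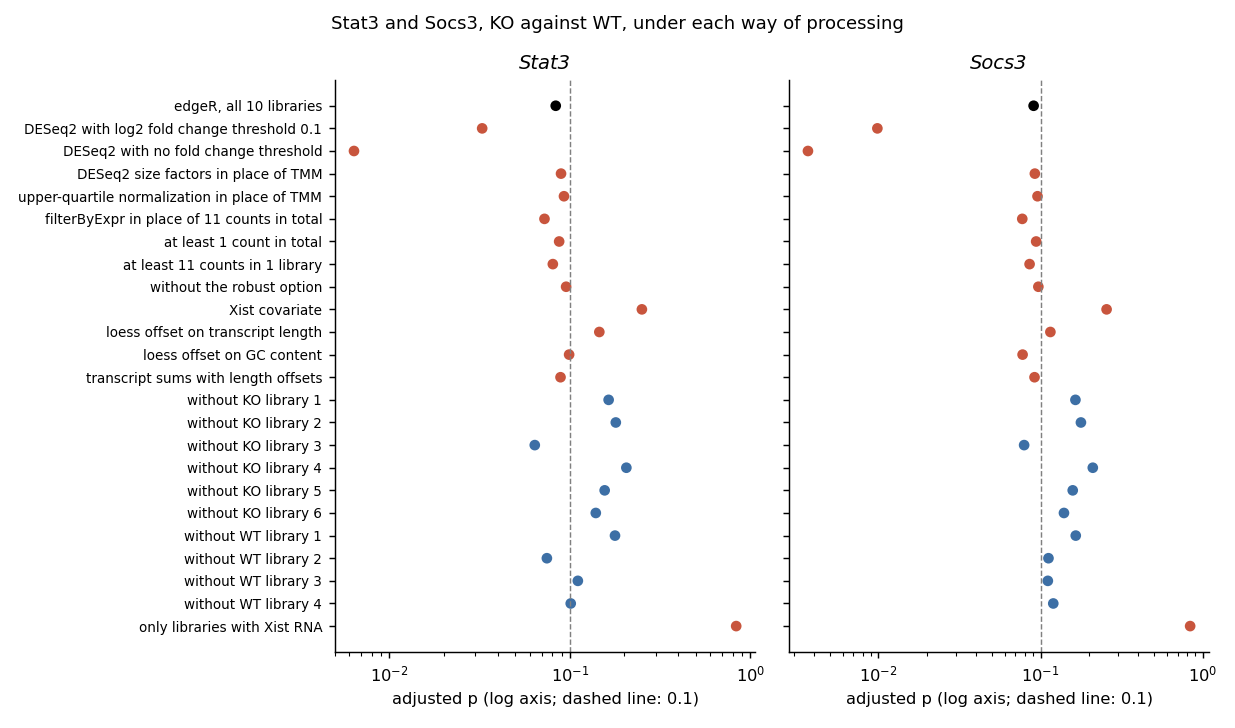
Adjusted p of Stat3 and Socs3, KO against WT, on a log axis, for edgeR on all 10 libraries (black), with 1 library left out (blue) and under other settings (red), with a dashed line at the threshold of 0.1. The 2 DESeq2 fits lie lowest, most fits with a library left out lie between 0.1 and 0.21, and the fit of the libraries with Xist RNA lies highest, at 0.837.

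Other gene lists moved with Stat3 and Socs3, and their part in these differences was not tested. Of the 10 stem cell and sort genes, 3 were called higher in KO and 0 lower, beside 1.32% and 2.67% of all genes. They were Cd34 (log2 fold change 0.93, adjusted p = 0.0824), Mecom (1.83, adjusted p = 0.0836) and Hlf (1.84, adjusted p = 0.0906), by edgeR with Benjamini-Hochberg adjustment. Cd34 was highest in KO library 3 (288 CPM) and lowest in WT library 1 (95.6 CPM), as was the summed level of the endothelial genes. Hlf was lowest in KO library 3 (13.7 CPM). Whether the Cd34 RNA came from stem cells was not tested. Among the 10 stem cell and sort genes, 8 log2 fold changes were positive and 2 negative, those of Ly6a (-0.88) and Cd48 (-0.60). Cd48 is not a mark of LT-HSCs, so its direction is not to be read like that of the others. Of the 19 immediate early genes, which rise within minutes of a stimulus or of cell handling, 3 were called higher and 0 lower (1.32% and 2.67% of all genes). They were Jun (1.62, adjusted p = 0.0824), Nr4a1 (3.24, adjusted p = 0.0824) and Fosb (2.73, adjusted p = 0.0974), by edgeR. The list did not move as 1, with 15 positive and 4 negative log2 fold changes. At an unadjusted p below 0.05 from edgeR, 8 were higher and 1 lower (8.6% and 10.2% of all genes). The lower gene was Hspa1b (-2.76). The summed level of the 19 genes was 1195 to 3406 CPM in KO and 433 to 1519 CPM in WT. It was highest in KO library 4 and lowest in WT library 1, the libraries with the highest and lowest Socs3. Fos and Dusp1 had the highest levels of that list. The summed levels of the 12 endothelial genes overlapped between the groups, as did those of the 13 macrophage genes, at 223 to 962 CPM in KO and 104 to 733 CPM in WT. The macrophage sum was mostly Mrc1 in some libraries (714 of 962 CPM in KO library 3), and 9 of the 13 genes had a negative log2 fold change, with a median of -0.88 and 1 called lower, Marco. Of the 8 erythroblast genes tested, which included Slc4a1 and Alas2 at the highest levels, all 8 had a negative log2 fold change, with a median of -1.40. Of these, 3 were lower at an unadjusted p below 0.05 (10.2% of all genes) and 1 was called, Epor, which is also 1 of the receptors below. The 10 granulocyte genes (12.6 to 1322 CPM in KO and 6.07 to 2163 CPM in WT, led by Mpo and S100a8), 8 megakaryocyte genes (266 to 4087 CPM and 280 to 1430 CPM, led by Pf4 and Ppbp) and 10 hepatoblast genes (77.8 to 6577 CPM and 166 to 4543 CPM, led by Afp and Alb) had 0 calls in edgeR, and of these genes Vwf and Ly6g had an unadjusted p below 0.05, Ly6g being at 0 in all WT libraries.

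**Figure D5:**
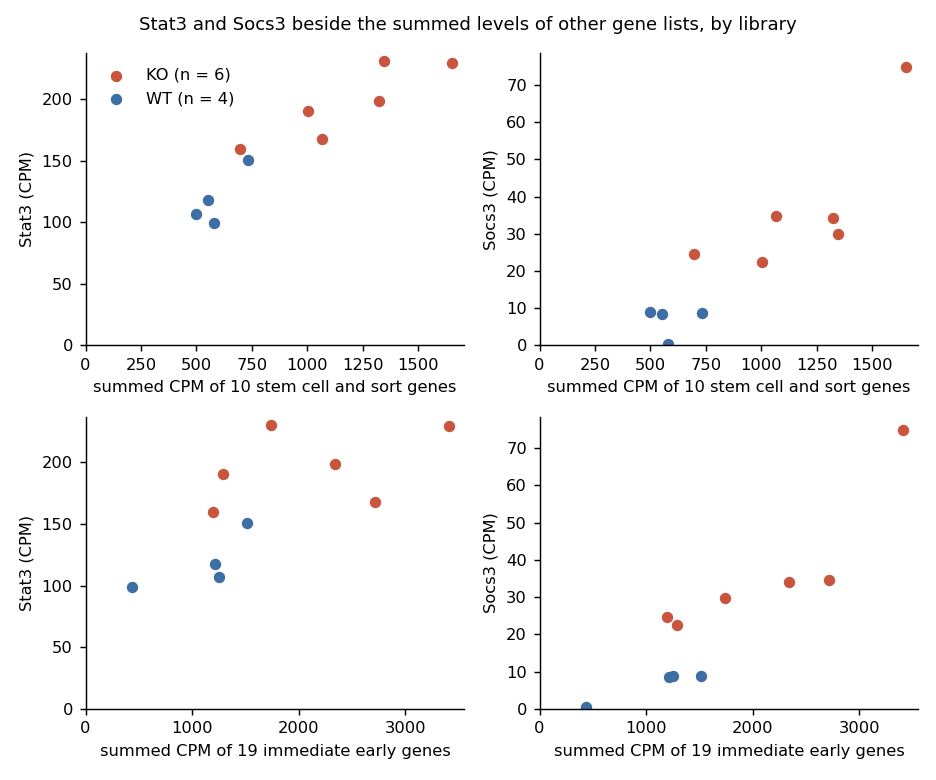
Stat3 (left) and Socs3 (right) in CPM against the summed CPM of 10 stem cell and sort genes (top) and of 19 immediate early genes (bottom), with 1 point per library, KO (n = 6) in red and WT (n = 4) in blue. The KO library with 74.8 CPM of Socs3 has the highest sum of both lists, 1650 and 3406 CPM, and the WT library with 0.379 CPM has the lowest sum of immediate early genes, 433 CPM.

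Over the 10 libraries, the genes whose log2(CPM + 1) was most like that of Stat3 among 10698 genes with a mean of at least 5 CPM were Atn1 (Pearson's r 0.972), Plec (0.964), Setbp1 (0.963), Elf4 (0.951) and Baz2a (0.944). For Socs3 they were Phf21a (0.966), Cep68 (0.962), Nfat5 (0.961), Dnmt3a (0.956) and Slc25a45 (0.956). The libraries fall into 2 genotypes, which these values include. Within the 6 KO libraries alone, r was 0.889 to 0.963 for the 5 genes of Stat3 and 0.712 to 0.872 for those of Socs3. Without WT library 1 and KO library 4, the libraries farthest from the median of Socs3, r was 0.815 to 0.957 for its 5 genes. The genes were picked for the highest r over the same libraries. High values within parts of them were favoured by that choice and are no separate result.

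Of the other genes of the pathway, 112 in all, 103 were tested, and 2 were called higher and 1 lower in KO. Over all genes, 1.32% were called higher and 2.67% lower. The median log2 fold change was 0.49 over these pathway genes and 0.06 over all genes tested. Among the 9 other JAK, STAT and SOCS genes, 0 passed the threshold of edgeR in either direction, and 2 were higher at an unadjusted p below 0.05, as were 8.6% of all genes. These were Jak3, the partner of Jak1 on common gamma chain receptors, at 93.6 ± 33.0 CPM in KO (SD, n = 6) and 43.3 ± 27.9 CPM in WT (SD, n = 4), and Stat4, which carries interleukin-12 signals, at 38.4 ± 17.0 and 13.1 ± 9.09 CPM. Their adjusted p-values were 0.224 and 0.225 by edgeR with Benjamini-Hochberg adjustment. Stat2, part of the interferon response, was at 20.7 ± 4.39 CPM in KO (SD, n = 6) and 14.3 ± 1.55 CPM in WT (SD, n = 4), with an adjusted p of 0.289 by edgeR. Its groups did not overlap, as for 6.36% of all genes.

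A list of 14 other regulators held PIAS proteins, phosphatases and adaptors such as Sh2b1, and not all of them are inhibitors. Of these 14 genes, 0 passed the threshold of edgeR. At an unadjusted p below 0.05, 5 were higher (8.6% of all genes), Sh2b1 among them. The smallest p-values were those of the ubiquitin ligases Cblb (log2 fold change 1.03, adjusted p = 0.122) and Cbl (0.78, adjusted p = 0.135), which mark activated receptors for degradation, and of Pias3 (0.97, adjusted p = 0.165), an inhibitor of Stat3, by edgeR with Benjamini-Hochberg adjustment.

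Of the 34 receptor genes tested, 1 was lower in KO and 0 were higher (2.67% and 1.32% of all genes). It was Epor, the erythropoietin receptor, at 68.2, 48.4, 43.4, 57.2, 65.9 and 88.8 CPM in KO libraries 1 to 6 and at 161, 106, 163 and 65.4 CPM in WT libraries 1 to 4. All but WT library 4 of the WT group lay above the KO range. The means were 62.0 ± 16.3 CPM in KO (SD, n = 6) and 124 ± 46.9 CPM in WT (SD, n = 4) (adjusted p = 0.0937 by edgeR with Benjamini-Hochberg adjustment). Epor is the same call as that of the erythroblast list, in which all 8 log2 fold changes were negative, and the summed level of those 8 genes was 278 to 2447 CPM in KO and 296 to 6808 CPM in WT. The interleukin-21 receptor Il21r (log2 fold change 1.68, adjusted p = 0.148) and Csf2rb (1.87, adjusted p = 0.186), the common beta chain of the receptors for interleukin-3 and Csf2, had the next smallest p-values by edgeR. For Csf2rb the groups did not overlap, as for 6.36% of all genes, with WT library 1 at 0.228 CPM.

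Of the 13 ligand genes tested, 1 was higher in KO and 0 were lower (1.32% and 2.67% of all genes). It was Clcf1, a cytokine of the interleukin-6 family that signals through Stat3, at 4.51, 14.9, 1.19, 5.23, 7.27 and 8.35 CPM in KO libraries 1 to 6. In WT libraries 2 and 3 it was at 0.887 and 0.370 CPM, and in WT libraries 1 and 4 it was at 0. The groups did not overlap, as for 6.36% of all genes. The log2 fold change of 4.38 (SE 1.11, adjusted p = 0.0836 by edgeR with Benjamini-Hochberg adjustment) rested on 15 counts in all WT libraries against 667 in KO. Osm, another cytokine of the interleukin-6 family and itself a target of Stat5, was at 3.01 ± 2.33 CPM in KO (SD, n = 6) and 0.421 ± 0.629 CPM in WT (SD, n = 4), with an adjusted p of 0.234 by edgeR. Il5 had 39 counts in KO, 32 of them in 1 library, and 0 in WT. The other 7 ligand genes of the list, among them Epo, Csf3 and Il3, were not in the gene table and were not tested.

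Of the 20 known targets of Stat3 other than members, 1 was higher and 0 were lower (1.32% and 2.67% of all genes). It was Fosl2, a partner of Jun in the transcription factor AP-1, at 92.3 ± 56.8 CPM in KO (SD, n = 6), and at 4.10, 22.3, 12.3 and 15.3 CPM in WT libraries 1 to 4. The groups did not overlap, as for 6.36% of all genes, and WT library 1 was again the lowest. The log2 fold change was 2.78 (SE 0.60, adjusted p = 0.0824 by edgeR with Benjamini-Hochberg adjustment). Junb, another AP-1 gene that also stands in the immediate early list, had a log2 fold change of 1.68 (adjusted p = 0.109), and Birc5, the survival and mitosis protein survivin, one of -0.71 (adjusted p = 0.114 by edgeR). The list as a whole had 14 positive and 6 negative log2 fold changes and a median of 0.50.

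Of the 16 targets of Stat5, 0 passed the threshold of edgeR and 3 were higher at an unadjusted p below 0.05 (8.6% of all genes), Osm among them. The smallest p-values were those of the survival kinase Pim2, at 30.2 ± 15.7 CPM in KO (SD, n = 6) and 7.40 ± 5.04 CPM in WT (SD, n = 4), with an adjusted p of 0.101, and of the survival gene Bcl2 (log2 fold change 1.09, adjusted p = 0.118), by edgeR with Benjamini-Hochberg adjustment. Of the 6 targets of Stat6 that were tested, 0 passed the threshold of edgeR and 1, Gata3, was higher at an unadjusted p below 0.05, with an adjusted p of 0.109. Fcer2a (log2 fold change 1.34, adjusted p = 0.430) and the interleukin-4 receptor Il4ra (0.50, adjusted p = 0.663) followed by edgeR.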

How the data were processed

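Bulk RNA of LT-HSCs was measured in 6 KO and 4 WT libraries, grouped by the genotype in the labels. The authors made single-end SmartSeq2 libraries and ran bcl2fastq 2.20 and kallisto 0.44.0 against Gencode vM16 transcripts on GRCm38, per the submitters' processing notes and the methods. They deposited, for each library, estimated counts, TPM and lengths per transcript, and 1 gene table of these counts summed by symbol and rounded. The rounded estimated counts, deposited without normalisation, were tested with edgeR 4.0.16 (glmQLFit with robust estimation, glmQLFTest, TMM) in R 4.3.3, for genes with at least 11 counts in total, with Benjamini-Hochberg adjustment over 16725 genes and a threshold of 0.1. Standard errors came from the F statistic, and 95% intervals used its degrees of freedom. The test was planned for plain counts, and it was kept for these estimates. The TPM values deposited by the authors were summed by gene through Gencode vM21, which matched 99.6% of transcripts, and lengths were used as offsets in 1 alternative. Ratios were tested by exact permutation over 210 divisions of the libraries (SciPy 1.17.1). Motifs were searched in RefSeq windows on GRCm38.p6. The fit was tested on simulated data.

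The members, the other gene lists and the tests were chosen with earlier results of these data known. The genes named are the members, of each JAK-STAT list the called genes and the 3 with the smallest p, of each cell type list the called genes and the 2 with the highest counts, Spi1 and Tnfrsf11a, and the 5 genes most like Stat3 and Socs3. Tnfrsf11a had an adjusted p of 0.886 by edgeR. The alternatives were DESeq2 1.42.0, other normalisations, filters, covariates and offsets, and each library left out. Counts of reads carry no molecular identifiers, so counting limits cover counting error only.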

Additional observations from a re-analysis of the deposited data

Results flagged for a closer look

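In each group of libraries the highest and the lowest value of each member and of each ratio was set against the gap to its nearest neighbour, and 5 values stood apart by Dixon's test at the 95% level. Chance gives about 1 such group in 20, and 26 groups were checked. Socs3 was at 74.8 CPM in KO library 4, with 22.5 to 34.7 CPM in the other KO libraries, and at 0.379 CPM in WT library 1, with 8.49 to 8.87 CPM in the other WT libraries. Both lie on the outer side of their group, and without WT library 1 the log2 fold change of Socs3 was 2.08 (adjusted p = 0.165 by edgeR with Benjamini-Hochberg adjustment), without KO library 4 it was 2.14 (adjusted p = 0.210). Stat5b was at 36.1 CPM in KO library 3, with 59.0 to 70.5 CPM in the others. The log2 ratio of Stat3 to the sum of Stat5a and Stat5b was 1.73 in KO library 3, with 0.62 to 0.98 in the others, and -0.48 in WT library 1, with 0.57 to 0.77 in the others.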

How the results depend on the processing

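Jak2, Stat3, Stat6, Socs3 and Cish kept their direction in all 23 refits of the gene table. Of these, Jak2, Stat6 and Cish passed the threshold in 0 refits. Stat3 and Socs3 were both called in 10 of the 13 refits other than those with 1 library left out, and 0 members were called with Xist as a covariate, with a length offset, in the libraries with Xist RNA or at an adjusted p below 0.05. All genes called numbered 585 higher with DESeq2 at its fold change threshold, 998 higher and 1145 lower without that threshold, and 852 lower with a GC offset. They numbered 0 higher and 0 lower at an adjusted p below 0.05, with the Xist covariate (912 and 1548 at an unadjusted p below 0.05), with the length offset (980 and 1854) and in the libraries with Xist RNA (247 and 456), and no DESeq2 run was made in these settings. With 1 library left out they numbered 0 to 405 higher and 0 to 598 lower, and 0 to 2 members were called. The log2 fold change then ranged from -0.11 to 0.61 for Jak1, -0.34 to 0.22 for Stat5a, 0.048 to 0.62 for Stat6, 0.98 to 2.38 for Cish, -0.20 to 0.97 for Socs1 and -0.16 to 0.22 for Socs2, and the ratio of Stat3 to both Stat5 genes differed by 0.38 to 0.79. The sign turned for Socs2 with the Xist covariate (0.054), with transcript sums (0.19) and in the libraries with Xist RNA (0.12), and for Stat5b with the length offset (-0.071) and in the libraries with Xist RNA (-0.052). The median of all genes moved from 0.06 to -0.06 with the length or the GC offset. The cause of these shifts was not tested. Replicate numbers only name the libraries. No paired analysis was possible because the labels pair no KO with a WT library. The lowest counts of members were 4 for Socs1 and 5 for Socs3 in WT library 1, and 1 for Socs1 and 4 for Cish in WT library 4.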
